A study of Mus musculus with 2 samples.

Results

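The genes described here are 45 genes of T cells and cytotoxic lymphocytes, picked by symbol from 22350 gene symbols listed in the 2 libraries. They encode the T cell receptor and its CD3 chains, the CD8 and CD4 coreceptors, molecules that hold lymphocytes in an epithelium, and the proteins of cytotoxic granules. Colon epithelial cells of C57BL/6 mice had been taken for messenger RNA sequencing, as 1 Pkm2-/- library and 1 WT library. Mice of both genotypes had been given 2.5% DSS (dextran sulfate sodium, which damages the epithelium of the colon) for 3 days, so that no untreated colon was compared. The labels leave out how the Pkm2-/- allele was made, in which cells it acts, the age of the mice and how many animals made up a library. With 1 library per genotype there was no replicate and no test, and every comparison describes these 2 libraries.

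Intraepithelial lymphocytes are T cells that live between the epithelial cells of the gut. Many carry CD8, part of them use the gamma-delta form of the T cell receptor, and most hold granules with granzymes, the proteases that are delivered into target cells through pores made by perforin. The integrin of Itgae and Itgb7 binds E-cadherin on epithelial cells and keeps these lymphocytes in place. Natural intraepithelial lymphocytes often carry CD8 as a pair of alpha chains, whereas conventional CD8 T cells carry an alpha and a beta chain.

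Expression was given as FPKM (fragments per transcript length and sequencing depth), and a fold is the plain ratio of FPKM in the Pkm2-/- library over the WT library. The lowest FPKM values clustered at the worth of 1 fragment, which gave a depth of about 21200000 fragments in the Pkm2-/- library and 19200000 in the WT library. Fragment numbers of a gene follow from that worth and from its longest annotated transcript. Pkm, the targeted gene, stood at 86.2 FPKM in the Pkm2-/- library against 281 FPKM in the WT library, a value that covers both of its splice forms. Epithelial genes dominated both libraries, as shown by Epcam, an epithelial adhesion molecule, at 712 FPKM in the Pkm2-/- library and 584 FPKM in the WT library. The 45 lymphocyte genes together summed to 245 FPKM in the Pkm2-/- library and 76.4 FPKM in the WT library, out of 533792 and 563086 FPKM over all genes.

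Lymphocyte genes were higher in the Pkm2-/- library nearly throughout. All 45 were listed there, and 43 were listed in the WT library, where Gzmk and Ifng had no entry, which need not mean that they were unexpressed. Of the 43 genes listed in both, 37 were at least 2-fold higher in the Pkm2-/- library, against 6.21% of all 18992 genes listed in both, and none was at least 2-fold lower, against 9.93%. Among the 14434 genes with a mean of 0.04 to 20 FPKM, the range in which the 43 lay, 7.28% were at least 2-fold higher. The median fold of the 43 was 3.09, against 1.02 over all genes listed in both. The folds lay between 2 and 5 for 31 genes and at 5 or more for 6. The remaining 6 were Tcrg-C1, Rac2, Ahr, Xcl1, Fasl and Trdc, and Trdc alone was below 1. In a bulk library, more cells of a type and more RNA per cell cannot be told apart.

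Low values limited part of the list. The mean was at least 1 FPKM for 31 of the 45 genes, and 12 had fewer than 10 fragments in the WT library. On the scale log2((Pkm2-/- FPKM + 1)/(WT FPKM + 1)), which compresses the differences of low genes, 20 of these 31 were past 2-fold higher, against 1.42% of 12429 genes with such a mean, and none was past 2-fold lower, against 1.90%. Their median log2 ratio was 1.11, against 0.06 over all 12429 genes. The 95% counting interval of the fold, a Clopper-Pearson interval on fragments that covers counting error only, lay above 1 for 39 of the 43 genes listed in both, and Cd28, Xcl1, Fasl and Trdc were the 4 whose interval held 1.

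**Figure D1:**
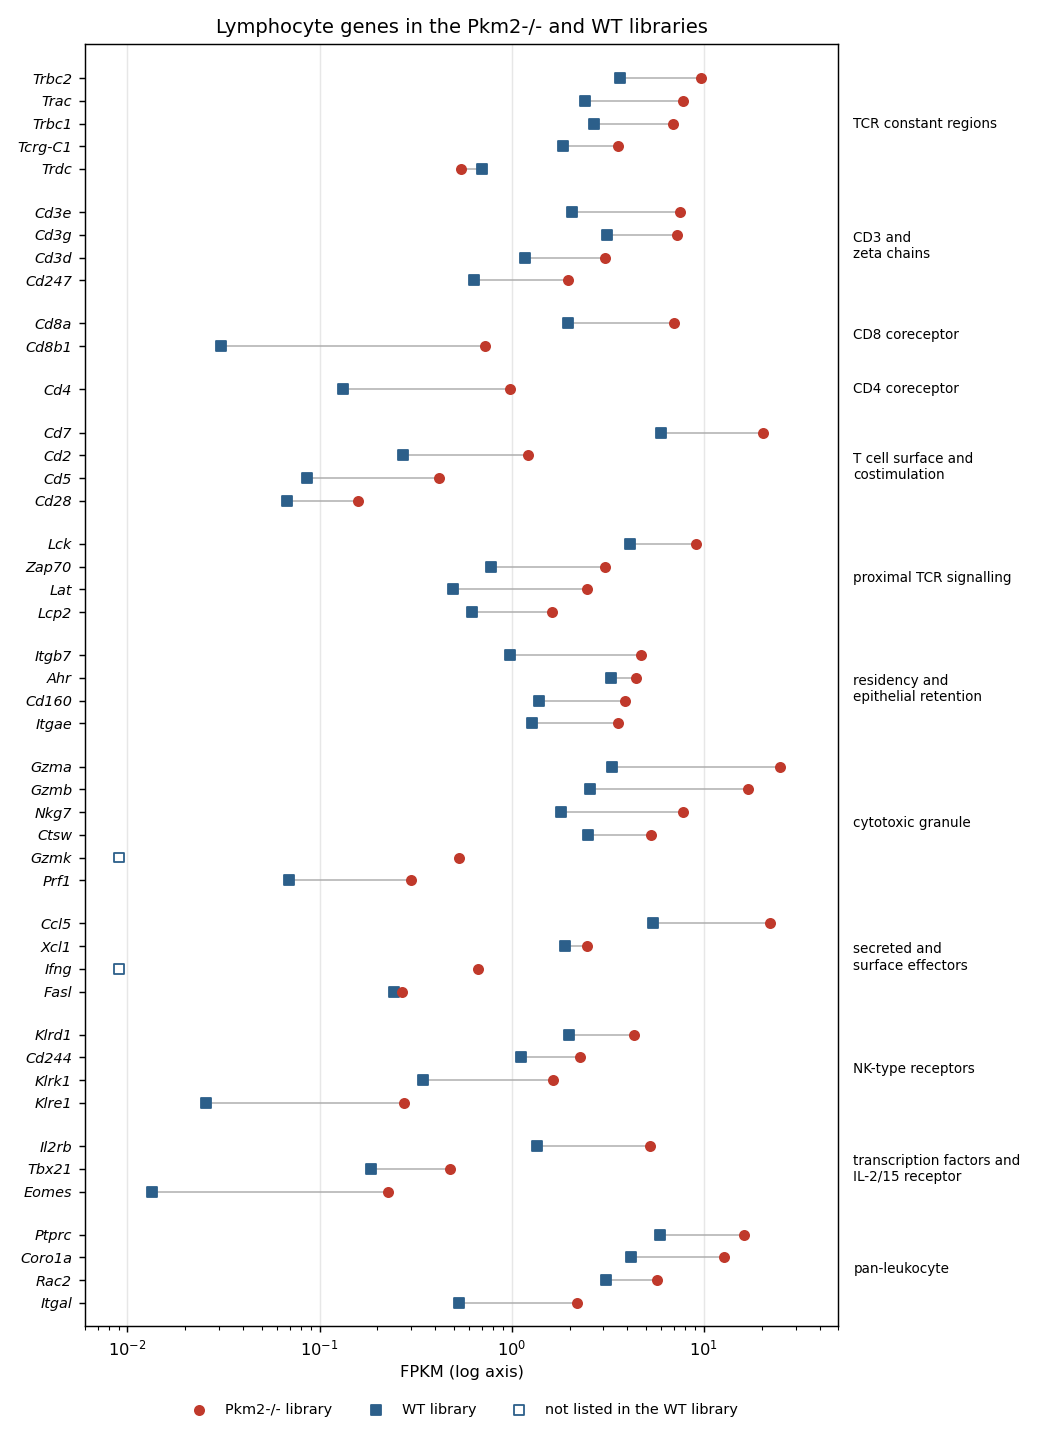
FPKM of the 45 lymphocyte genes on a log axis, with circles for the Pkm2-/- library and squares for the WT library, grouped by role. The circle lies right of the square for every gene listed in both but Trdc, and the open squares mark Gzmk and Ifng, which are not listed in the WT library.

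The T cell receptor complex was compared first, because every T cell needs it. The CD3 chains carry the signal of the receptor into the cell. Cd3e stood at 7.52 FPKM in the Pkm2-/- library and 2.05 FPKM in the WT library, 3.66-fold higher (95% counting interval 2.94 to 4.60). Cd3g stood at 7.29 FPKM in the Pkm2-/- library and 3.14 FPKM in the WT library. Cd3d stood at 3.06 FPKM in the Pkm2-/- library and 1.17 FPKM in the WT library. These 3 genes lie side by side on chromosome 9 (44969572 to 45009627 on GRCm38) and were all at least 2-fold higher, with Cd3g 2.33-fold (1.93 to 2.82) and Cd3d 2.62-fold (1.78 to 3.93). The zeta chain gene Cd247, which carries most of the signalling motifs of the complex, stood at 1.96 FPKM in the Pkm2-/- library and 0.635 FPKM in the WT library. Its exons overlap those of Pou2f1, which was at 4.99 and 4.87 FPKM in the Pkm2-/- and WT libraries, so that the value of Cd247 may be less certain. Summed over the 4 chains, the ratio was 2.84 (2.50 to 3.22).

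The constant regions of the receptor chains separated the alpha-beta from the gamma-delta form. Trac, the constant region of the alpha chain, stood at 7.78 FPKM in the Pkm2-/- library and 2.41 FPKM in the WT library, 3.23-fold higher (2.29 to 4.64). The beta chain constant regions were close to each other in fold, with Trbc1 at 6.95 FPKM in the Pkm2-/- library and 2.69 FPKM in the WT library. Trbc2 stood at 9.71 FPKM in the Pkm2-/- library and 3.65 FPKM in the WT library. Trbc1 and Trbc2 are near copies, with 44.8% of the 31-base words of Trbc1 also found in Trbc2, and their separate values are uncertain. The ratio of the summed alpha-beta constant regions was 2.79 (2.29 to 3.41), next to 2.84 for the CD3 and zeta chains.

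The gamma-delta receptor genes differed from this. Trdc, the constant region of the delta chain, stood at 0.544 FPKM in the Pkm2-/- library and 0.699 FPKM in the WT library, from about 45 and 52 fragments. Its fold was 0.778 with an interval of 0.510 to 1.18, so that a lower level was not separable from an equal one at this depth, while a fold as large as that of Trac lay outside the interval. Tcrg-C1, a constant region of the gamma chain, stood at 3.59 FPKM in the Pkm2-/- library and 1.86 FPKM in the WT library, 1.92-fold higher (1.26 to 3.00). Gamma and delta chains pair in 1 receptor, and the folds of their constant regions differed here. However, 51.0% of the 31-base words of Tcrg-C1 occur in other genes, 35.8% in Tcrg-C2. Tcrg-C2 and Tcrg-C4, named after their values were seen, were 2.26-fold and 1.81-fold higher in the Pkm2-/- library. Exons of Trdc overlap those of Trdv5, listed in the WT library alone at 0.365 FPKM. Trdc is annotated as a transcript of 3865 bases, against 924 bases for Tcrg-C1 and 935 for Trac. A level per length depends on that annotation, and so do the fragment numbers and the counting interval, while the fold does not.

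The variable segments were looked up after the constant regions were seen, and were listed at low levels. The Trbv segments of the beta chain summed to 11.9 FPKM in the Pkm2-/- library and 2.58 FPKM in the WT library, with 18 segments listed in the Pkm2-/- library and 12 in the WT library. The Trav segments of the alpha chain summed to 8.85 FPKM in the Pkm2-/- library and 3.55 FPKM in the WT library. The gamma chain segments summed to 6.20 FPKM in the Pkm2-/- library and 3.23 FPKM in the WT library, a ratio of 1.92. The Trdv segments of the delta chain were the 1 family of these 4 with a lower sum, at 0.281 FPKM in the Pkm2-/- library and 1.25 FPKM in the WT library, from 2 and 3 listed segments. The WT sum of Trdv includes Trdv5 at 0.365 FPKM, whose exons overlap those of Trdc, so that this sum is not separate from Trdc. No counting interval was computed for the segment sums. Segments are short and alike, and reads of 1 segment may be assigned to another.

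The coreceptors mark the T cell classes that read class I or class II antigen. Cd8a, the chain shared by both forms of CD8, stood at 6.99 FPKM in the Pkm2-/- library and 1.97 FPKM in the WT library, 3.54-fold higher (2.89 to 4.37). Cd8b1, the beta chain, stood at 0.729 FPKM in the Pkm2-/- library and 0.0307 FPKM in the WT library, from about 23 fragments against 1 fragment. Its ratio of 23.7 therefore had an interval of 3.52 to 1519. In both libraries Cd8b1 was far below Cd8a, at 0.104 FPKM per FPKM of Cd8a in the Pkm2-/- library and 0.0156 in the WT library, and the interval of the ratio of these 2 values, 0.786 to 57.0, held 1. Cd4, the coreceptor of helper T cells, stood at 0.981 FPKM in the Pkm2-/- library and 0.132 FPKM in the WT library, 7.42-fold higher (3.54 to 18.0, from about 65 and 8 fragments). Cd4 was thus 0.140 of the level of Cd8a per length in the Pkm2-/- library and 0.0670 in the WT library. With the shortest annotated transcript of Cd4 the fragments were so few that the interval of its fold reached below 1.

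All 4 genes of residency in the epithelium were higher in the Pkm2-/- library, by unequal factors. Itgae, the alpha chain of the E-cadherin-binding integrin, stood at 3.59 FPKM in the Pkm2-/- library and 1.28 FPKM in the WT library, 2.81-fold higher (2.22 to 3.59). Its partner Itgb7 stood at 4.71 FPKM in the Pkm2-/- library and 0.984 FPKM in the WT library, 4.78-fold higher (3.53 to 6.59). Itgb7 also pairs with another alpha chain on cells that home to the gut, and the level of Itgae per Itgb7 was 0.763 in the Pkm2-/- library and 1.3 in the WT library, a ratio of 0.589 (0.403 to 0.860). Cd160, a receptor found on intraepithelial lymphocytes and natural killer cells, stood at 3.91 FPKM in the Pkm2-/- library and 1.38 FPKM in the WT library. Ahr, a receptor for dietary ligands that intraepithelial lymphocytes need for their maintenance in mice, stood at 4.42 FPKM in the Pkm2-/- library and 3.27 FPKM in the WT library, 1.35-fold higher (1.18 to 1.55). Epithelial and myeloid cells also express Ahr. The ratio of the summed residency genes was 2.41 (2.17 to 2.67), and 3.36 without Ahr.

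The genes of the cytotoxic granule had the largest ratio of sums among the subsets with more than 1 gene. Gzma, a tryptase-like granzyme, stood at 25 FPKM in the Pkm2-/- library and 3.34 FPKM in the WT library, 7.48-fold higher (5.77 to 9.86). Gzmb, the granzyme that cleaves caspases, stood at 16.9 FPKM in the Pkm2-/- library and 2.55 FPKM in the WT library, 6.63-fold higher (5.16 to 8.63). Gzma was the most abundant of the 45 genes per length in the Pkm2-/- library, whereas in the WT library Cd7, Ptprc and Ccl5 were the highest. The ratio of Gzma to Gzmb was 1.48 in the Pkm2-/- library and 1.31 in the WT library, and the interval of the change, 0.788 to 1.62, held 1. Nkg7, a granule membrane protein needed for granule release, stood at 7.79 FPKM in the Pkm2-/- library and 1.81 FPKM in the WT library, 4.30-fold higher (2.90 to 6.57). The promoters of Gzma, Gzmb and Nkg7, picked after their folds were seen, are shown from RefSeq on GRCm38.p6. Beside them is that of Cd8a, a gene that was itself 3.54-fold higher. The windows run from 250 bases before to 50 after the start. They lie at chr13:113100932-113101231, minus strand, at chr14:56262285-56262584, minus strand, at chr7:43436888-43437187, plus strand, and at chr6:71373177-71373476, plus strand. Capitals mark the letters TGTGGT (bound by RUNX factors), AGGTGT (bound by T-box factors), TTCNNNGAA (bound by STAT factors) and CCGGAA (bound by ETS factors) on either strand.
Gzma: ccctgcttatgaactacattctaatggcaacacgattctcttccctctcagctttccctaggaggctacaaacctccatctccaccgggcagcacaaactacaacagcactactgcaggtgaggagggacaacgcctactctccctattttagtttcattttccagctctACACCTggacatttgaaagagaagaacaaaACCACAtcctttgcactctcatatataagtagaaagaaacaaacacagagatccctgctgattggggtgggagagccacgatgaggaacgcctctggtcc
Gzmb: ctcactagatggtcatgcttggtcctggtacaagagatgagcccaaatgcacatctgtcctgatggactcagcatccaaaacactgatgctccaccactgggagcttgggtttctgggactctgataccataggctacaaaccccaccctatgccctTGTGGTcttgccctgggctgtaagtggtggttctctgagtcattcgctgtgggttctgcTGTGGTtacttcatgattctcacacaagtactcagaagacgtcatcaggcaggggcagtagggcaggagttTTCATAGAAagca
Nkg7: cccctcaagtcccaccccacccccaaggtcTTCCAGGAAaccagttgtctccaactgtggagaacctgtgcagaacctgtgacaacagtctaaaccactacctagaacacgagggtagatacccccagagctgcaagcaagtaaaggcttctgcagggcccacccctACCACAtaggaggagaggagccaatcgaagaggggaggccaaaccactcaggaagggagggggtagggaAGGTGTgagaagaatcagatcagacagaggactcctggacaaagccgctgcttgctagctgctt
Cd8a: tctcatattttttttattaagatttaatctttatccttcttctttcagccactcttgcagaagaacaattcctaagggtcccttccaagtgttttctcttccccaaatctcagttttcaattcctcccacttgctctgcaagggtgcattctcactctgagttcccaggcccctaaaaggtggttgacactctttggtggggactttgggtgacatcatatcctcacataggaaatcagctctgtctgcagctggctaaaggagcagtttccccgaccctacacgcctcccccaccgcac

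The RUNX letters occurred in the promoters of Gzma and Nkg7 and at 2 places in that of Gzmb, and the T-box letters in those of Gzma and Nkg7. The STAT letters occurred in those of Gzmb and Nkg7. No searched motif was found in the window of Cd8a. Of the 26 lymphocyte genes with a promoter entry, 42.3% held the RUNX letters, against 18.9% of 27025 genes, and 30.8% held the T-box letters, against 15.7%. The STAT letters were in 19.2% against 9.55%, and the ETS letters in 11.5% against 16.7%. A match of letters describes the window and is not evidence of binding. The starts are those of RefSeq and can differ from those of the GENCODE M21 genes. The Gzmb window lies wholly upstream of its GENCODE gene, which begins at 56262260 on the minus strand. The GENCODE start of Nkg7, 43437073, lies upstream of its RefSeq start.

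The granule subset also held Ctsw, Prf1 and Gzmk. Ctsw, a cathepsin of cytotoxic cells, stood at 5.31 FPKM in the Pkm2-/- library and 2.50 FPKM in the WT library, 2.12-fold higher (1.61 to 2.82). Its exons overlap those of Fibp, which was at 21.0 and 22.7 FPKM in the Pkm2-/- and WT libraries, so its own value may be less certain. Prf1, which encodes perforin, stood at 0.3 FPKM in the Pkm2-/- library and 0.0694 FPKM in the WT library, from about 16 and 3 fragments (fold 4.33, interval 1.29 to 21.1). Perforin transcript was thus low beside granzyme transcript, with Gzma at 83.4 FPKM per FPKM of Prf1 in the Pkm2-/- library and 48.2 in the WT library. Gzmk, a granzyme of memory-type CD8 cells, stood at 0.534 FPKM in the Pkm2-/- library, from about 15 fragments, and was not listed in the WT library. The ratio of the summed granule genes was 5.44 (4.73 to 6.25), and 4.45 without Gzma.

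**Figure D2:**
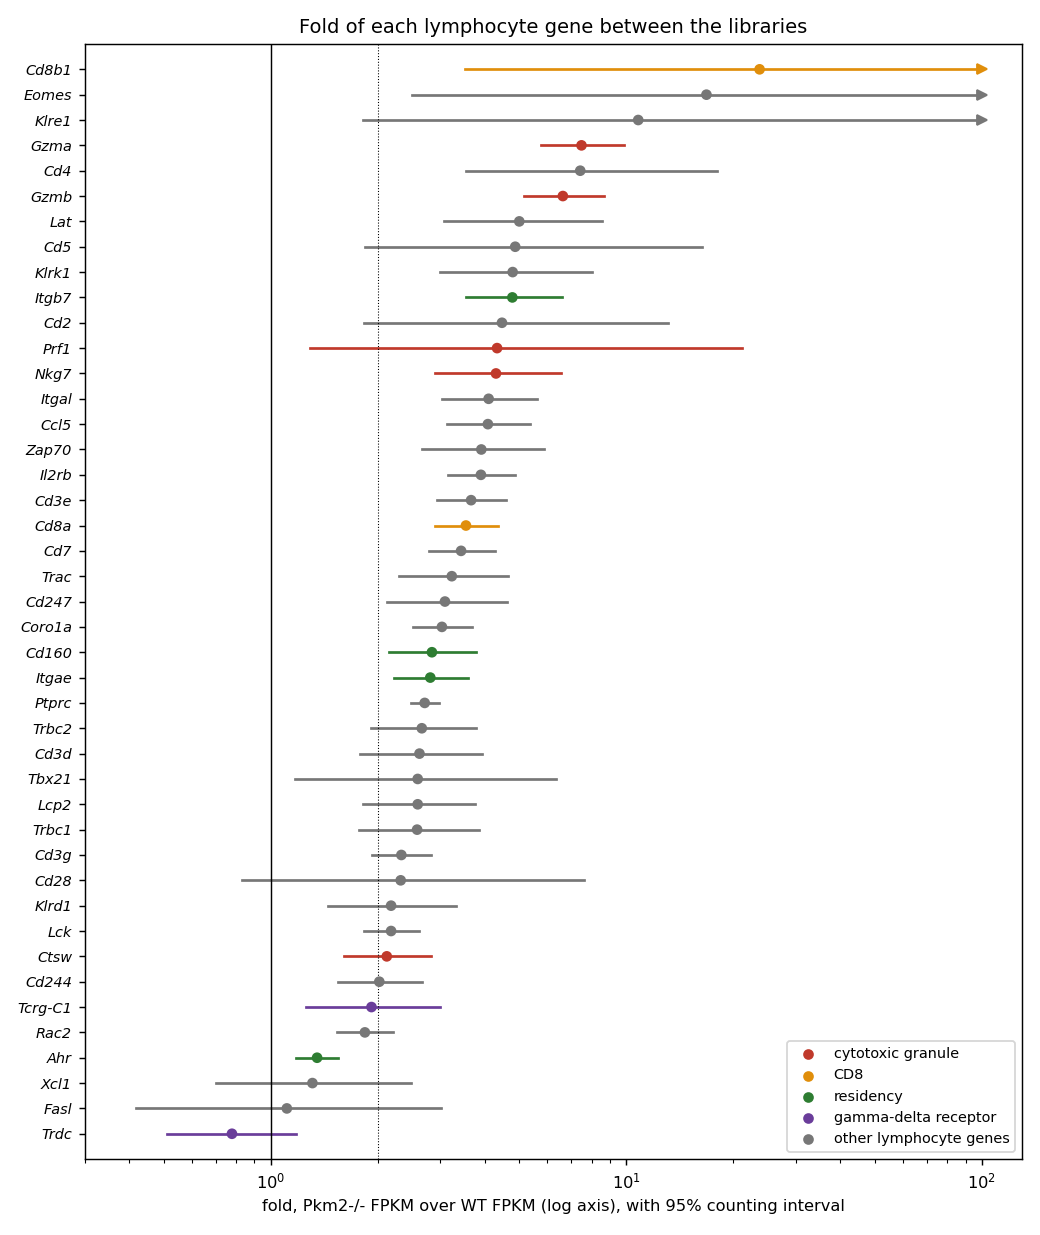
Fold of each lymphocyte gene listed in both libraries (Pkm2-/- FPKM over WT FPKM, log axis) with its 95% counting interval; arrows mark intervals that run past the axis. Gzma at 7.48 and Gzmb at 6.63 have narrow intervals, while Cd8b1, Eomes and Klre1 rest on about 1 fragment in the WT library, and Trdc at 0.778 is the only fold below 1.

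Secreted and surface effectors did not share 1 pattern. Ccl5, a chemokine stored by cytotoxic T cells, stood at 22.2 FPKM in the Pkm2-/- library and 5.44 FPKM in the WT library, 4.08-fold higher (3.14 to 5.36). Ifng, which encodes interferon-gamma, stood at 0.667 FPKM in the Pkm2-/- library, from about 17 fragments, and was not listed in the WT library. Of its 31-base words, 22.6% also occur in Gm49751, an overlapping gene that neither library lists. Xcl1, a chemokine that draws cross-presenting dendritic cells, stood at 2.47 FPKM in the Pkm2-/- library and 1.89 FPKM in the WT library, 1.31-fold higher with an interval of 0.702 to 2.48. Fasl, the ligand of the death receptor Fas, stood at 0.269 FPKM in the Pkm2-/- library and 0.243 FPKM in the WT library, from about 11 and 9 fragments.

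Receptors of the natural killer type, which intraepithelial lymphocytes also carry, were at least 2-fold higher in all 5 cases, Cd160 included. Klrd1, the partner chain of NKG2 receptors, stood at 4.34 FPKM in the Pkm2-/- library and 1.99 FPKM in the WT library, 2.18-fold higher (1.45 to 3.32). Klrk1, which encodes the activating receptor NKG2D, stood at 1.65 FPKM in the Pkm2-/- library and 0.344 FPKM in the WT library, 4.79-fold higher (3.00 to 7.99). Cd244, a receptor for CD48, stood at 2.26 FPKM in the Pkm2-/- library and 1.12 FPKM in the WT library. Klre1 was at 0.274 FPKM in the Pkm2-/- library and 0.0255 FPKM in the WT library, from about 14 fragments and 1 fragment (fold 10.8, interval 1.82 to 283). Of 9 natural killer cell genes, 7 were listed in both libraries, 3 of them at least 2-fold higher, and none had a mean of 1 FPKM or more. The share at least 2-fold higher over all 18992 genes listed in both was 6.21%. The natural killer cell genes summed to 2.95 FPKM in the Pkm2-/- library and 1.41 FPKM in the WT library, a ratio of 2.1 (1.46 to 3.03). The 3 higher ones were the receptor genes Klri2 at 6.25-fold, Klrc2 at 5.11-fold and Klra7 at 2.17-fold. Ncr1, a defining gene of natural killer cells, stood at 0.158 FPKM in the Pkm2-/- library and 0.131 FPKM in the WT library, from about 5 and 4 fragments.

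The regulators of the cytotoxic programme were scarce. Il2rb, the receptor chain through which interleukin-15 maintains these cells, was the exception at 5.27 FPKM in the Pkm2-/- library and 1.35 FPKM in the WT library, 3.90-fold higher (3.16 to 4.85). Tbx21, which encodes the factor T-bet, stood at 0.479 FPKM in the Pkm2-/- library and 0.185 FPKM in the WT library, from about 25 and 9 fragments (fold 2.59, interval 1.17 to 6.36). Eomes, a related T-box factor, stood at 0.226 FPKM in the Pkm2-/- library and 0.0134 FPKM in the WT library, from about 17 fragments and 1 fragment (fold 16.8, interval 2.49 to 927).

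Proximal signalling genes were higher in all 4 cases. Lck, the kinase that starts receptor signalling, stood at 9.05 FPKM in the Pkm2-/- library and 4.14 FPKM in the WT library, 2.18-fold higher (1.83 to 2.62). Zap70, the kinase that binds phosphorylated CD3 and zeta chains, stood at 3.06 FPKM in the Pkm2-/- library and 0.782 FPKM in the WT library, 3.91-fold higher (2.67 to 5.87). Lat, the membrane adaptor phosphorylated by Zap70, stood at 2.46 FPKM in the Pkm2-/- library and 0.493 FPKM in the WT library, 5.0-fold higher (3.07 to 8.57). The cytosolic adaptor Lcp2, known as SLP-76, stood at 1.62 FPKM in the Pkm2-/- library and 0.623 FPKM in the WT library. Of 18 further signalling genes of T cells, 15 were listed in both libraries, all with folds above 1, and 9 were at least 2-fold higher. The share at least 2-fold higher over all 18992 genes listed in both was 6.21%. The median fold of the 15 was 2.85, against 1.02 over all genes listed in both.

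Surface molecules of T cells followed the same direction from different levels. Cd7, abundant on intraepithelial lymphocytes, stood at 20.4 FPKM in the Pkm2-/- library and 5.97 FPKM in the WT library, 3.43-fold higher (2.78 to 4.26). The adhesion receptor Cd2 stood at 1.22 FPKM in the Pkm2-/- library and 0.272 FPKM in the WT library, from about 30 and 6 fragments. Cd5, which dampens receptor signalling and marks conventional T cells, was low at 0.420 FPKM in the Pkm2-/- library and 0.0863 FPKM in the WT library, from about 27 and 5 fragments. The costimulatory receptor Cd28 was lowest, at 0.158 FPKM in the Pkm2-/- library and 0.0678 FPKM in the WT library, with a fold interval of 0.831 to 7.59. In both libraries Cd5 and Cd28 were thus far below Cd7 per length.

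Genes shared by all leukocytes were higher as well. Ptprc, which encodes CD45, had the deepest coverage of the list, at 16.1 FPKM in the Pkm2-/- library and 5.94 FPKM in the WT library, from about 1964 and 656 fragments, and was 2.71-fold higher (2.48 to 2.97). Coro1a, an actin regulator of leukocytes, stood at 12.7 FPKM in the Pkm2-/- library and 4.20 FPKM in the WT library. Its exons overlap those of Bola2, at 12.0 and 14.3 FPKM in the Pkm2-/- and WT libraries. The integrin chain Itgal, part of LFA-1, stood at 2.18 FPKM in the Pkm2-/- library and 0.532 FPKM in the WT library, 4.10-fold higher (3.04 to 5.62). Rac2, a GTPase of blood cells, stood at 5.70 FPKM in the Pkm2-/- library and 3.09 FPKM in the WT library, 1.84-fold higher (1.54 to 2.21).

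To compare the subsets with one another, each was divided by the summed FPKM of Cd3d, Cd3e and Cd3g in the same library, a ratio that does not move with the scaling between libraries. The cytotoxic granule genes stood at 3.12 FPKM per FPKM of CD3 in the Pkm2-/- library and 1.62 in the WT library, 1.93-fold higher (1.59 to 2.35). The gamma-delta receptor genes stood at 0.231 per CD3 in the Pkm2-/- library and 0.403 in the WT library, a ratio of 0.573 (0.401 to 0.819). The CD8 chains stood at 0.432 per CD3 in the Pkm2-/- library and 0.315 in the WT library, a ratio of 1.37 (1.07 to 1.74), which was 1.05 with Cd3e alone as the divisor. The residency genes stood at 0.930 per CD3 in the Pkm2-/- library and 1.09 in the WT library, with an interval of the ratio, 0.722 to 1.01, that held 1. The alpha-beta constant regions stood at 1.37 per CD3 in the Pkm2-/- library and 1.38 in the WT library, a ratio of 0.994 (0.782 to 1.26). Cd4 stood at 0.0549 per CD3 in the Pkm2-/- library and 0.0208 in the WT library, a ratio of 2.64 with a wide interval of 1.25 to 5.59, and is left out of the order that follows. Ordered by this ratio, the granule genes were thus highest of the 5 subsets and the gamma-delta genes lowest, and the intervals of these 2 did not overlap. The granule interval overlapped that of CD8, and the gamma-delta interval overlapped those of residency and alpha-beta. The alpha-beta interval also overlapped those of CD8 and residency. All 5 intervals carry the same counting error of CD3, so their overlap does not decide whether neighbours differ. Without this divisor, the ratio of sums was 5.44 (4.73 to 6.25) for the granule and 3.85 (3.15 to 4.71) for CD8. These intervals narrowly missed each other, while those of the other neighbours in the order overlapped.

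The NK-type receptors and the pan-leukocyte genes had ratios per CD3 of 0.910 (0.723 to 1.15) and 0.949 (0.812 to 1.11), both with intervals that held 1. Within the subsets the genes did not keep step with CD3 alike. Gzma per CD3 was 2.66-fold higher in the Pkm2-/- library (1.99 to 3.56) and Gzmb per CD3 was 2.36-fold higher (1.78 to 3.13). Ctsw per CD3, of the same granule, had a ratio of 0.756 (0.559 to 1.02). Trdc per CD3 stood at 0.0305 in the Pkm2-/- library and 0.110 in the WT library, a ratio of 0.277 (0.182 to 0.422). Set against Trac in place of CD3, Trdc had a ratio of 0.241 (0.143 to 0.406). Tcrg-C1, the other gamma-delta gene, had a ratio of 0.684 (0.443 to 1.06) per CD3 and 0.596 (0.349 to 1.01) per Trac. Both intervals of Tcrg-C1 held 1. Xcl1 per CD3 had a ratio of 0.464 (0.255 to 0.846) and Ahr per CD3 a ratio of 0.480 (0.397 to 0.582), whereas Itgae per CD3 was at 1.0 (0.766 to 1.31). Itgb7 per CD3 stood at 0.263 in the Pkm2-/- library and 0.155 in the WT library, a ratio of 1.70 (1.22 to 2.36). Gzma per Cd8a stood at 3.58 in the Pkm2-/- library and 1.69 in the WT library, 2.11-fold higher (1.52 to 2.94).

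**Figure D3:**
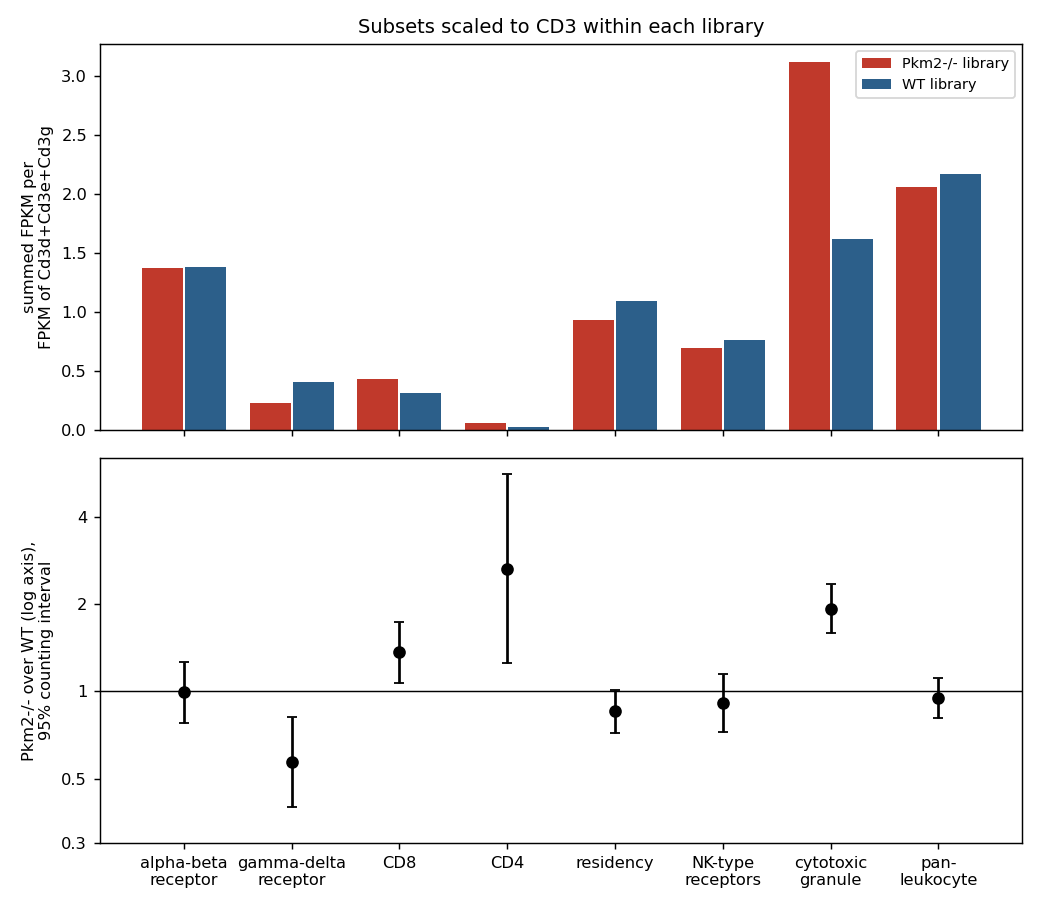
Summed FPKM of each subset per summed FPKM of Cd3d, Cd3e and Cd3g in the Pkm2-/- and WT libraries (upper panel, bars), and the ratio of both values with its 95% counting interval on a log axis (lower panel). The cytotoxic granule genes lie at 1.93 and the gamma-delta receptor genes at 0.573, while the alpha-beta receptor lies at 0.994; Cd160 is counted in both the residency and the NK-type subset.

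Other lymphocyte genes, from lists chosen with earlier results of these data known, were set beside the 45. Further granzymes and granule proteins summed to 54.4 FPKM in the Pkm2-/- library and 22.1 FPKM in the WT library. The ratio of these sums was 2.46 (2.32 to 2.61), against 5.44 for the granule subset. Per CD3 their ratio was 0.875 with an interval of 0.756 to 1.01 that held 1, against 1.93 for that subset. Tnfsf10 weighed most in both sums, at 43.0 FPKM in the Pkm2-/- library and 17.3 FPKM in the WT library. The fold reached 2 for 4 of the 6 genes listed in both. Receptors for chemokines and cytokines had folds above 1 for all 10 genes listed in both libraries, 7 of them at least 2-fold. Their median fold was 2.75, against 1.02 over all genes listed in both. Among them Il2rg, the common cytokine receptor chain, stood at 5.56 FPKM in the Pkm2-/- library and 1.90 FPKM in the WT library. Of 6 inhibitory receptors, 5 were at least 2-fold higher, with Lag3 at 1.71 FPKM in the Pkm2-/- library and 0.546 FPKM in the WT library. The rest of these, Havcr2, Pdcd1, Tigit and Cd101, rested on 1 to 4 fragments in the WT library. The interval of Cd101, 0.730 to 11.9, held 1. Over all 18992 genes listed in both libraries, 6.21% were at least 2-fold higher. Further residency genes, of which Cxcr6 and Ccr9 are also in the receptor list, had a smaller median fold of 1.84, over 8 genes listed in both, 3 of them at least 2-fold higher. Genes of naive and circulating T cells had a median fold of 1.89 over 7 genes, 2 of them at least 2-fold higher, and Tcf7, a factor of naive and memory T cells, was the only one above 1 FPKM in either library. Of 12 helper and regulatory T cell genes, 5 were listed in both. The genes for interleukin-17A and interleukin-22 were listed in neither library.

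Markers of other cell types also differed between the preparations, and their part in the results above was not tested. The 8 B and plasma cell genes summed to 34.6 FPKM in the Pkm2-/- library and 10 FPKM in the WT library, a ratio of 3.45 (2.94 to 4.06), carried by immunoglobulin genes. The 8 macrophage and dendritic cell genes summed to 10.5 FPKM in the Pkm2-/- library and 5.82 FPKM in the WT library, a ratio of 1.81. The 5 mast cell genes summed to 8.59 FPKM in the Pkm2-/- library and 1.54 FPKM in the WT library, a ratio of 5.57 (3.83 to 8.10), led by the mucosal mast cell protease Mcpt1 at 5.38 FPKM in the Pkm2-/- library and 0.202 FPKM in the WT library. The mast cell protease gene Cma1 was lower, at 0.297 FPKM in the Pkm2-/- library and 1.2 FPKM in the WT library. The 5 fibroblast genes were lower in sum, at 1.35 FPKM in the Pkm2-/- library and 4.34 FPKM in the WT library, and the 7 epithelial genes had a ratio of sums of 1.19. Of the 6 neutrophil genes, 3 were listed in neither library, and Ly6g, at 13.1 FPKM in the Pkm2-/- library and 25.4 FPKM in the WT library, made up nearly all of the sum. The 4 endothelial genes summed to 0.387 FPKM in the Pkm2-/- library and 0.534 FPKM in the WT library, and the 4 smooth muscle genes to 0.248 FPKM in the Pkm2-/- library and 0.0939 FPKM in the WT library.

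**Figure D4:**
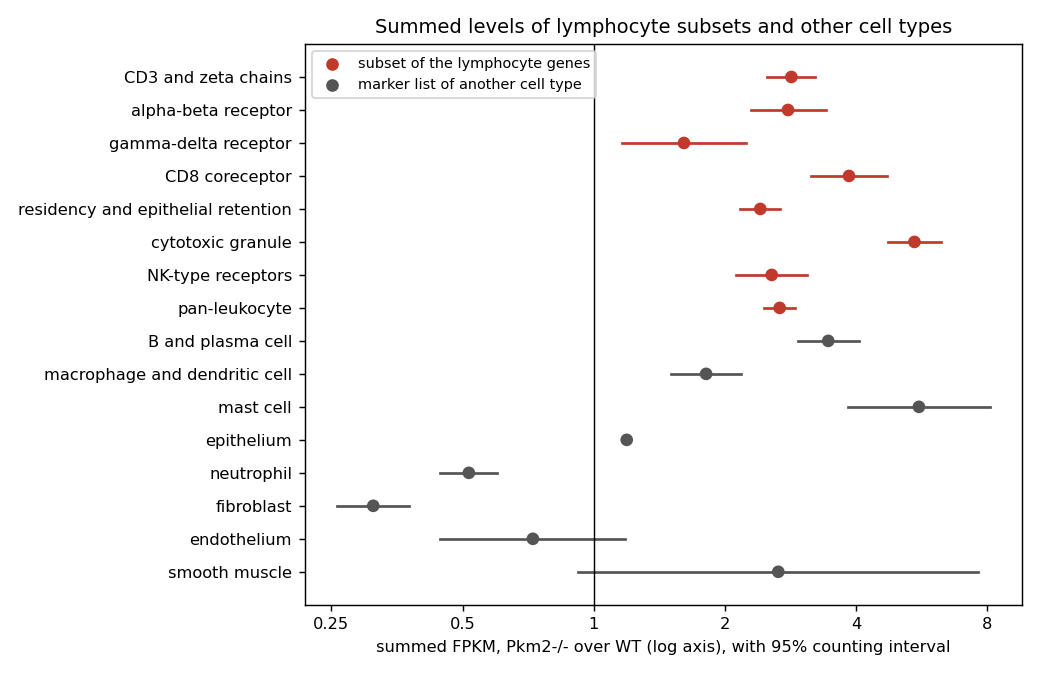
Ratio of summed FPKM, Pkm2-/- over WT, on a log axis with 95% counting intervals, for subsets of the lymphocyte genes and for marker lists of other cell types. The granule genes lie at 5.44 and the CD3 and zeta chains at 2.84, beside 3.45 for B and plasma cell genes, 5.57 for mast cell genes, 1.19 for epithelial genes and 0.312 for fibroblast genes.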

How the data were processed

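Each library had a table of FPKM per Ensembl gene with a symbol and a locus, as the authors deposited it; the tables have no header, and the unit was inferred from the values and the tools. Per the submitters' processing notes, the tools named are TopHat2 2.1.1 with Bowtie2 2.2.9, Cuffdiff in versions 1.3.0 and 2.2.1, and Cufflinks 2.2.1, and the build named is mm8. The loci in the tables did not bear that name out, since GENCODE M21 holds 99.4% of the 22384 gene IDs and 99.90% of the matched loci overlapped their GRCm38 gene, so GRCm38 coordinates are given. Whether counting used strand is not given in the sources used here. A gene without an entry was taken as 0, although it need not be unexpressed.

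FPKM values of 34 symbols with several IDs were summed. Depth was read from the lowest peak of FPKM times length in genes with 1 transcript longer than 600 bases, which lay at 0.0471 FPKM times kb in the Pkm2-/- library (665 genes near it) and 0.0520 in the WT library (706 genes); it was tested on simulated data. A transcript of 2 kb at 1 FPKM rests on about 42.4 and 38.5 fragments in the Pkm2-/- and WT libraries. Counting intervals of single folds are Clopper-Pearson intervals at 95%, and those of sums and of ratios per CD3 come from the counting variance on the log scale; both treat fragments as independent molecules and cover neither animals nor preparations. Counts used a threshold of 2-fold, with a pseudocount of 1 FPKM and a mean of at least 1 FPKM where stated. By rule, all 45 genes are accounted for, and both values are given for those averaging 1 FPKM or more and for the CD3, CD8, CD4, receptor and granzyme genes. Of the other lists, up to 3 genes with the highest mean and those past 2-fold could be named. Genes described beyond this rule (Cd2, Cd5, Cd28, Klrk1, Klre1, Tbx21, Eomes, Fasl, Prf1, Ifng, Cma1 and Ncr1) were chosen after their values were seen. The genes and lists were chosen with earlier results of these data known. Python 3.11.15, pandas 2.3.3, NumPy 2.4.6, SciPy 1.17.1 and matplotlib 3.10.9 were used. Promoters are RefSeq entries on GRCm38.p6, found for 26 of the 45 genes. Alternatives changed the pseudocount, the filter, the scaling, the treatment of genes without an entry, the divisor and the transcript length. Some genes of the other lists are not reported here.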

Additional observations from a re-analysis of the deposited data

How the results depend on the processing

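With 1 library per genotype, no alternative could leave out a replicate, and differences between animals or preparations cannot be told apart from the genotype. No paired analysis was possible because each genotype has 1 library. Of 110 alternative values, 83 stayed within the range that counting error allows around the value reported (for counts of genes, within 1.5 times). The count of genes past 2-fold higher, 20, was 4 with a pseudocount of 5 FPKM and 9 where the mean had to reach 5 FPKM, a filter that fewer genes pass, and none was past 2-fold lower under any alternative run. The median log2 ratio over the lymphocyte genes, 1.11, became 1.44 at a pseudocount of 0.1, 0.60 at 5, 0.91 with no filter, 1.38 with the stricter filter and 1.03 with equal library medians. With pseudocounts of 0.1 and 5, the subset medians were 1.40 and 0.49 for the CD3 and zeta chains (0.95 as reported), 1.43 and 0.47 for residency (1.03) and 2.36 and 1.22 for the cytotoxic granule (1.99), and the alpha-beta median (1.2) was 0.77 with a pseudocount of 5. The granule median was 1.25 without the filter and 2.46 with the stricter one. Ratios of sums without the most abundant gene were 3.25 for the CD3 and zeta chains, 23.7 for CD8, 3.36 for residency and 4.45 for the granule, and the gamma-delta ratio turned to 0.778, the value of Trdc alone. With Tcrg-C2, Tcrg-C3 and Tcrg-C4 added, a choice made after seeing the data, the gamma-delta ratio of sums was 1.98 and the ratio per CD3 0.703. Per Cd3e in place of all 3 CD3 genes, the ratio was 0.763 for alpha-beta, 1.05 for CD8, 0.657 for residency and 1.49 for the granule, and per Cd3g it was 1.03 for residency. The Pkm ratio of 0.307 was 0.290 with equal medians. Beyond what each alternative changes by construction, the cause was not tested. With the shortest transcripts as lengths, the interval of the fold reached 1 for Cd4, Cd5, Klre1, Rac2, Lcp2 and Ahr. Genes with about 1 fragment in the WT library, such as Cd8b1, Eomes and Klre1, have folds known only within wide limits.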
